A study of Mus musculus with 2 samples.

Results

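Krtdap, Sbsn, Dmkn, Calm5, Calml3, Lypd3, Klk8 and Tgm3 are 8 genes of keratinocyte differentiation whose products are secreted, sit at the cell surface or bind calcium. They were taken by name, and all 8 were found among the 32286 features counted in each of 2 droplet single-cell RNA-seq libraries of mouse skin epidermis, 1 library per genotype. The Survivin GOF mice carried an involucrin-driven CreER (Involucrin-CREER) with Rosa-SmoM2, and in addition Krt14rtTA and the Survivin GOF allele. The control mice carried Involucrin-CREER and Rosa-SmoM2 alone, so both groups carried the constitutively active Smoothened mutant SmoM2, and the control lacked the rtTA driver as well as the Survivin allele. Per the labels, the sort took YFP-positive cells with high α6 integrin that lacked CD34. The design text adds a red tag on Survivin for the GOF cells, so the sort differed between the groups and can set their shares of cell types. The involucrin promoter is active in differentiating keratinocytes, and the Krt14 promoter in basal ones. Treatment times, ages, sexes and the number of mice are not given in the sources used here.

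As keratinocytes leave the basal layer and turn suprabasal, they begin to make secreted proteins, desmosomal cadherins and the enzymes that later build and shed the cornified layer. Calcium drives much of this program. Krtdap (keratinocyte differentiation-associated protein), Sbsn (suprabasin) and Dmkn (dermokine) are secreted proteins of the suprabasal layers whose genes lie next to each other. Calm5 and Calml3 are calmodulin-related EF-hand proteins of epithelia, Lypd3 is a GPI-anchored surface protein of the Ly6/uPAR family, Klk8 is a secreted serine protease of the kallikrein family, and Tgm3 is a calcium-dependent transglutaminase that cross-links proteins of the cornified envelope and the hair shaft. Hedgehog-driven basal cell carcinoma consists of cells that resemble follicle progenitors more than stratified epidermis.

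The GOF library held 11438 barcodes and the control library 24844, of which 6922 and 10993 passed the filter of at least 1500 genes and at most 10% mitochondrial UMIs. The labels state 8046 cells for the control, where 8187 barcodes had at least 2000 genes and at most 10% mitochondrial UMIs. After doublet removal 6494 GOF cells (median 12324.5 UMIs) and 10294 control cells (median 7648 UMIs) remained, and 84 barcode sequences occurred in both libraries. Birc5, which encodes Survivin, stood at 793 CPM (a gene's UMIs as a share of all UMIs of the same cells, a 3′ count that does not scale with gene length) in GOF keratinocytes and at 55.2 CPM in control keratinocytes. The libraries also differed in Xist, with 553 CPM in GOF and 2.70 CPM in control keratinocytes, and male-called cells made up 1805 of 6322 GOF and 7366 of 10140 control keratinocytes, so that genotype, sex and library cannot be told apart. With 1 library per genotype no comparison below has a test or a replicate check. The 95% intervals (exact Poisson for levels, exact conditional for ratios, Clopper-Pearson for shares) cover counting error only.

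Clusters were built without the 8 genes and named from marker lists. Basal-like cells were cluster 2 (1713 GOF and 113 control cells) and cluster 3 (39 GOF and 1429 control cells), so this class sets 1 cluster per library against the other. Suprabasal-like cells (974 GOF, 1228 control) were cluster 0 (551 GOF, 628 control), cluster 5 (251 GOF, 160 control) and cluster 6 (172 GOF, 440 control), mixed in other proportions in each library, and scale-like cells, which carry Krt36 and Krt84 of tail scale epidermis, were cluster 7 with cluster 20 (430 GOF, 987 control, cluster 20 with 0 GOF cells). Hedgehog-high cells were cluster 4 (806 GOF, 910 control), with 10 of 14 hedgehog genes at least 2-fold up, and cluster 9 (253 GOF, 911 control), with 7 of 14. In cluster 4, 5 of 11 late differentiation markers were also at least 2-fold up. Their summed level there was 66.1 CPM in GOF and 123 CPM in control cells, against 50.8 CPM and 52.4 CPM in suprabasal-like cells. YFP stood at 30.5 CPM in GOF and 32.5 CPM in control hedgehog-high cells, against 1.10 CPM in GOF and 3.36 CPM in control basal-like cells. Barcodes under 1000 UMIs (311 GOF, 453 control) served as the measure of free RNA, and melanocyte-like cells (123 GOF, 104 control) as cells of another type. The lowest barcode held 500 UMIs in the GOF and 502 in the control library, so emptier droplets could not be used. The low-count barcodes had medians of 600 UMIs in GOF and 788 in control, and whether they include damaged cells was not tested. The melanocyte-like cells also held 20058 CPM of Krt14, the basal keratin, in GOF and 18211 CPM in control. The low-count barcodes held 10932 CPM of it in GOF and 8821 CPM in control. How much of the keratinocyte RNA in melanocyte-like cells is free RNA was not tested.

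Sbsn (ENSMUSG00000046056), Dmkn (ENSMUSG00000060962) and Krtdap (ENSMUSG00000074199) lie in this order on the plus strand of chromosome 7 in mm10, at chr7:30751471-30756134, chr7:30763756-30781063 and chr7:30787896-30791097. The gaps are 7622 bases between Sbsn and Dmkn and 6833 bases between Dmkn and Krtdap. Promoters from RefSeq (GRCm38.p6, 250 bases before each start) matched 7 of the 8 genes, all except Calml3, with 9 starts in all. The word TGANTCA, which reads the same on both strands and is the core of AP-1 type motifs, was found in 5 of these promoters, and these belonged to the 3 adjacent genes alone. A pair of the Dmkn starts lies 2 bases apart and is counted as separate promoters. It occurs in 6.75% of all 32851 promoters of that length. The promoters of those 3 genes are shown because they are the members that hold the word. Capitals mark it, and all sequences are on the plus strand.
Sbsn, chr7:30751221-30751470: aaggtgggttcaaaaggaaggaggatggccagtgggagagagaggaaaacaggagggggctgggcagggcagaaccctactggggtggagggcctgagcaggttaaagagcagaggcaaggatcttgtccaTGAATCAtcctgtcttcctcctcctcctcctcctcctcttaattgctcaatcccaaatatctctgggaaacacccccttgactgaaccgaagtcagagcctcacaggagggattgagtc
Dmkn, first start, chr7:30763506-30763755: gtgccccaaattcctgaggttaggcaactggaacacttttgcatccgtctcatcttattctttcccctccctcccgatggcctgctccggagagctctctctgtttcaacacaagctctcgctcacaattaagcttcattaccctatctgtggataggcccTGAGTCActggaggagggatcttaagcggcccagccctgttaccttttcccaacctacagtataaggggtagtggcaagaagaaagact
Dmkn, downstream start, chr7:30776155-30776404: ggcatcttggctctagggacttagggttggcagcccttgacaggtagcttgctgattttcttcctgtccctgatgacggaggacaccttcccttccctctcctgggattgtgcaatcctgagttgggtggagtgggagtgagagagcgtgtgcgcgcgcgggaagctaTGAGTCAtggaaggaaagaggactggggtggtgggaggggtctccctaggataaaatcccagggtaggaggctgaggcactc
Krtdap, chr7:30787655-30787904: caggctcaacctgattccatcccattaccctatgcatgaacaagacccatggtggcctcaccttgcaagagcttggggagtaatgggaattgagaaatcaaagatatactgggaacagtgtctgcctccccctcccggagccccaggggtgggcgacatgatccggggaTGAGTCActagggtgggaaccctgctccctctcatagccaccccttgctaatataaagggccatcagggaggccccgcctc
The word begins 119 bases before the Sbsn start as TGAATCA. It begins 89 and 82 bases before the printed Dmkn starts and 81 bases before the Krtdap start, each time as TGAGTCA. The word TATAAA was searched on both strands, as TATAAA or TTTATA. It was found as TATAAA in the promoters of Krtdap and Tgm3, and in either form in 12.4% of all promoters. These are matches of letters and say nothing about binding. The word TGANTCA was not found in these windows of Lypd3, Klk8, Tgm3 or Calm5.

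All 3 secreted products were high in suprabasal-like and scale-like cells and lower in basal-like and hedgehog-high cells, in both libraries. Krtdap stood at 10302 CPM in GOF and 10377 CPM in control suprabasal-like cells, and at 11830 CPM in GOF and 11203 CPM in control scale-like cells. It stood at 3256 CPM in GOF and 4082 CPM in control basal-like cells, and at 729 CPM in GOF and 1948 CPM in control hedgehog-high cells. Suprabasal-like cells thus had 3.16 times (3.14 to 3.19) the basal-like level in the GOF library and 2.54 times (2.51 to 2.57) in the control library. After each cell was thinned to 3000 UMIs, Krtdap was found in 100% of suprabasal-like cells of both libraries, and still in 95.5% (94.4 to 96.4) of GOF and 99.7% (99.3 to 99.9) of control basal-like cells. Among hedgehog-high cells it was found in 63.5% (60.6 to 66.5) of GOF and 90.4% (89.0 to 91.8) of control cells. It was also found in 85.4% (77.9 to 91.1) of GOF and 98.1% (93.2 to 99.8) of control melanocyte-like cells, so a UMI of Krtdap does not mark a cell that makes it. Before thinning these shares were 99.6% and 99.9% in GOF and control basal-like cells and 97.6% and 99.0% in GOF and control melanocyte-like cells, at median depths of 10212 and 6762 UMIs for basal-like and 11795 and 9382.5 UMIs for melanocyte-like cells.

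Sbsn showed the steepest gradient of the trio. It stood at 1508 CPM in GOF and 1959 CPM in control suprabasal-like cells, at 2243 CPM in GOF and 2358 CPM in control scale-like cells, and at 253 CPM in GOF and 307 CPM in control basal-like cells. The suprabasal-like level was 5.95 times (5.78 to 6.13) the basal-like level in the GOF library and 6.38 times (6.15 to 6.61) in the control library. Within the suprabasal-like class Sbsn was highest in cluster 6, whose leading genes were Krt2, Krt10 and Slurp1, with 3347 CPM in GOF and 3456 CPM in control cells. Sbsn overlaps Tmem147os on the same strand in the annotation, so reads in the overlap cannot be told apart.

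Dmkn had the flattest profile of the trio in both libraries. It stood at 1929 CPM in GOF and 2032 CPM in control suprabasal-like cells, at 2459 CPM in GOF and 2181 CPM in control scale-like cells, and at 1205 CPM in GOF and 933 CPM in control basal-like cells. The suprabasal-like level was 1.60 times (1.57 to 1.63) the basal-like level in the GOF library, under the 2-fold mark, and 2.18 times (2.13 to 2.23) in the control library. In melanocyte-like cells Dmkn stood at 899 CPM in GOF and 790 CPM in control, close to basal-like cells of the same library. Sbsn and Dmkn were also high in bulge-like cells, which carry follicle stem cell markers, with 1810 CPM of Sbsn in GOF and 1575 CPM in control cells, and 2089 CPM of Dmkn in GOF and 1832 CPM in control cells. Krtdap there was lower than in suprabasal-like cells, with 2041 CPM in GOF and 2524 CPM in control bulge-like cells.

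In CPM, most of the 8 genes stood below the low-count barcodes in basal-like cells. In each library 6 of the 8 genes were lower in basal-like cells than in the low-count barcodes with Poisson intervals apart (9.57% of 10772 genes in the GOF library and 13.2% of 9815 in the control library), and the intervals of Calm5 and Tgm3 overlapped. Krtdap, at 3256 CPM in GOF and 4082 CPM in control basal-like cells, compared with 5879 CPM in GOF and 5037 CPM in control low-count barcodes. Per barcode it had 40.5 UMIs in GOF and 29.9 in control basal-like cells, against 3.82 and 3.94 in low-count barcodes. The 8 genes ranged from 21.3% to 136% of their low-count level in GOF and from 26.5% to 121% in control basal-like cells. Krt10, a suprabasal keratin, stood at 8.28% in GOF and 17.3% in control. The free part of these levels was not tested.

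**Figure D1:**
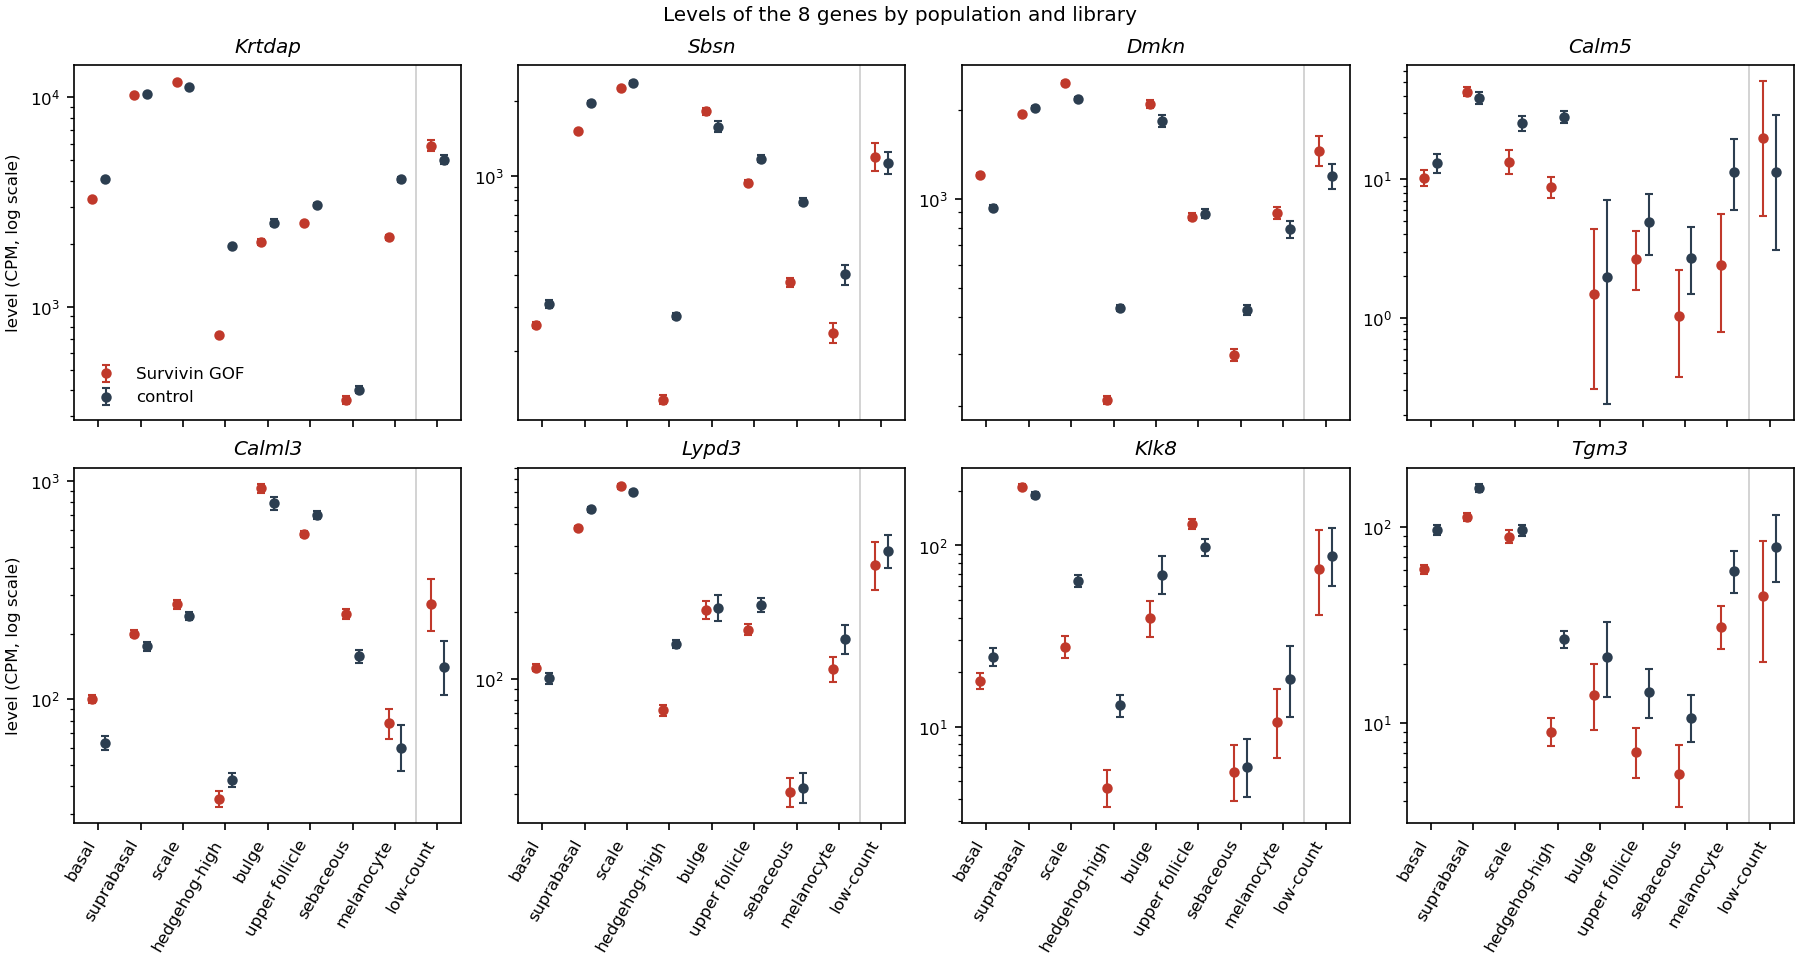
Level of each gene (CPM, log scale) in 8 cell populations and in the low-count barcodes of the Survivin GOF library (red, left of each pair) and the control library (dark, right), with exact Poisson 95% intervals. Scale-like cells lie at the top for Krtdap, Sbsn, Dmkn and Lypd3, Calml3 peaks in bulge-like cells, and the intervals of hedgehog-high cells lie below those of the low-count barcodes for all genes except Calm5.

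The pair of calmodulin relatives differed in where they were found. Calm5 (ENSMUSG00000099269, chr13:3854173-3854761, plus strand) was a sparse transcript with 42.8 CPM (39.6 to 46.3) in GOF and 38.7 CPM (35.1 to 42.6) in control suprabasal-like cells. The suprabasal-like level was 4.2 times (3.60 to 4.92) the basal-like level in the GOF library and 2.97 times (2.46 to 3.61) in the control library. In the GOF library scale-like cells (13.4 CPM, 10.9 to 16.3), basal-like cells (10.2 CPM, 8.90 to 11.6) and hedgehog-high cells (8.73 CPM, 7.36 to 10.3) followed, neighbours in that order with overlapping intervals. In the control library hedgehog-high cells (28.1 CPM, 25.5 to 30.8) and scale-like cells (25.2 CPM, 22.3 to 28.4) overlapped, and basal-like cells had 13 CPM (11 to 15.3).

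The hedgehog-high cells held Calm5 unevenly. Cluster 9, whose leading genes include Dio2, Nptx1 and Krt17, had 37.8 CPM (31.5 to 45.0) in GOF and 62.9 CPM (57.0 to 69.2) in control cells, whereas cluster 4 had 1.30 CPM in GOF and 3.06 CPM in control cells. The ratio of cluster 9 to cluster 4 was 29.0 (17.4 to 51.3) in the GOF library and 20.6 (14 to 31.3) in the control library. Of the 8 genes 5 were at least 2-fold higher in cluster 9 than in cluster 4 in the GOF library (2.92% of 11108 genes tested) and 5 in the control library (4.29% of 11037). Krtdap had the next largest such ratio in both libraries, 4.65 in GOF and 4.12 in control cells. Calm4, a calmodulin relative that lies 15500 bases from Calm5, was likewise higher in cluster 9, with 1036 CPM in GOF and 1799 CPM in control cells, than in cluster 4, with 179 CPM in GOF and 299 CPM in control cells. Calm4 and Calm5 are related in sequence, and how their reads were split was not tested.

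Calml3 (ENSMUSG00000063130, chr13:3802896-3804316, minus strand) was highest in cells of the hair follicle. It stood at 200 CPM in GOF and 175 CPM in control suprabasal-like cells, at 272 CPM in GOF and 241 CPM in control scale-like cells, and at 99.9 CPM in GOF and 62.9 CPM in control basal-like cells. The suprabasal-like level was 2.001 times (1.89 to 2.12) the basal-like level in the GOF library and 2.78 times (2.55 to 3.03) in the control library. Its highest levels among the named populations were 928 CPM in GOF and 792 CPM in control bulge-like cells, and 572 CPM in GOF and 699 CPM in control upper follicle-like cells. In bulge-like cells Calml3 made up 13.01% of the UMIs of the 8 genes in GOF and 11.3% in control cells, against 1.35% in GOF and 1.13% in control suprabasal-like cells. In the same bulge-like cells Calm5 had 3 UMIs in the GOF and 2 UMIs in the control library.

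Among basal-like, suprabasal-like, scale-like and hedgehog-high cells, Lypd3 (ENSMUSG00000057454, chr7:24636550-24641118, plus strand), the surface protein, was highest in scale-like cells. It stood there at 741 CPM in GOF and 700 CPM in control. It stood at 481 CPM in GOF and 583 CPM in control suprabasal-like cells, and at 112 CPM in GOF and 100.2 CPM in control basal-like cells. The small stressed-like cluster 18 (27 GOF, 93 control cells) had more Lypd3, with 1285 CPM in GOF and 897 CPM in control. The suprabasal-like level was 4.295 times (4.10 to 4.50) the basal-like level in the GOF library and 5.82 times (5.46 to 6.20) in the control library. Lypd3 overlaps Gm26550 and Klk8 overlaps 2310002F09Rik, both annotated on the opposite strand, and the sources used here do not say whether counting used the strand.

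Klk8 (ENSMUSG00000064023, chr7:43797577-43803826, plus strand) had the steepest step of the 8 genes between basal-like and suprabasal-like cells. It stood at 211 CPM in GOF and 190 CPM in control suprabasal-like cells, and at 17.8 CPM in GOF and 24.3 CPM in control basal-like cells. The ratio of the levels was 11.9 (10.7 to 13.2) in the GOF library and 7.83 (6.90 to 8.92) in the control library. At 3000 UMIs per cell it was found in 34.0% (31.0 to 37.1) of GOF and 34.6% (31.9 to 37.4) of control suprabasal-like cells, against 3.25% (0.893 to 8.12) of GOF and 8.65% (4.03 to 15.8) of control melanocyte-like cells. Within the suprabasal-like class Klk8 was highest in cluster 5, whose leading genes include Flg, Klk7 and Klk5, with 394 CPM in GOF and 410 CPM in control cells. Unlike the secreted trio, Klk8 was lower in scale-like than in suprabasal-like cells, by 7.66-fold in the GOF library and 2.97-fold in the control library. It lies 820 bases from Klk9 and 7468 bases from Klk7.

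Tgm3 (ENSMUSG00000027401, chr2:130012349-130050399, plus strand) differed by less than 2-fold between basal-like, suprabasal-like and scale-like cells. It stood at 112 CPM in GOF and 158 CPM in control suprabasal-like cells, and at 60.7 CPM in GOF and 95.9 CPM in control basal-like cells. The ratio was 1.85 (1.72 to 1.99) in the GOF library and 1.64 (1.52 to 1.78) in the control library. Scale-like cells had 88.7 CPM in GOF and 95.8 CPM in control, and in the control library their interval overlapped that of basal-like cells. Tgm3 was below the 2-fold mark in both libraries and Dmkn in the GOF library, so 6 of the 8 genes were at least 2-fold higher in suprabasal-like than in basal-like cells in the GOF library (4.61% of 11428 genes tested) and 7 of the 8 in the control library (5.25% of 10787). Tgm3 was still higher in suprabasal-like than in basal-like cells in both libraries, with intervals of the ratio above 1. Scale-like over basal-like cells gave 5 of the 8 genes in the GOF library (4.1% of 11176 genes) and 6 in the control library (4.96% of 10787), with Lypd3 at 6.61 in GOF and 6.99 in control. Scale-like cells were at least 2-fold below suprabasal-like cells for Klk8 and Calm5 in the GOF library (2 of the 8 genes, 3.42% of all) and for Klk8 in the control library (1 of the 8 genes, 1.68%).

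The number of the 8 genes found in a cell followed the layers. At 3000 UMIs per cell a mean of 4.63 of the 8 genes was detected in GOF and 4.71 in control suprabasal-like cells, and 4.69 in GOF and 4.70 in control scale-like cells. Basal-like cells had a mean of 3.02 in GOF and 3.2 in control. Hedgehog-high cells had a mean of 1.65 in GOF and 2.65 in control, and 18.5% (16.2 to 20.9) of GOF against 3.36% (2.57 to 4.301) of control hedgehog-high cells had none of the 8 genes. Melanocyte-like cells, thinned to the same depth, had a mean of 2.24 in GOF and 2.82 in control. Of the hedgehog-high clusters, cluster 4 was below that in each library, with a mean of 1.45 in GOF and 2.13 in control, and cluster 9 was not, with 2.27 in GOF and 3.17 in control.

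**Figure D2:**
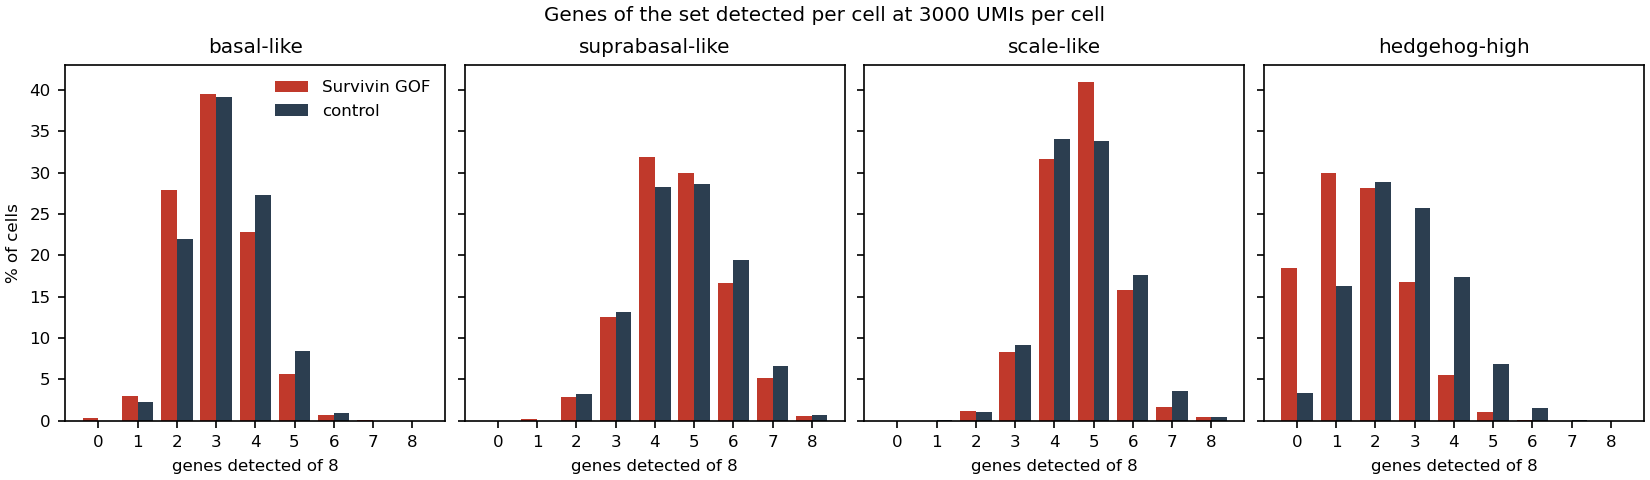
Share of cells (%) by how many of the 8 genes were detected after thinning to 3000 UMIs per cell, for Survivin GOF cells (red, left bars) and control cells (dark, right bars). Suprabasal-like and scale-like cells centre on 4 to 5 genes in both libraries, basal-like cells on 3, and GOF hedgehog-high cells on 1 to 2.

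In CPM, hedgehog-high cells had less of the early differentiation genes than the low-count barcodes of their own library. Krtdap stood at 729 CPM (716 to 742) in GOF and 1948 CPM (1926 to 1970) in control hedgehog-high cells, against 5879 CPM (5550 to 6223) in GOF and 5037 CPM (4806 to 5276) in control low-count barcodes. In both libraries 7 of the 8 genes were below the low-count barcodes with intervals apart, against 7.74% of 11145 genes in the GOF library and 6.86% of 11080 in the control library. None was above, against 5.4% of genes in the GOF library and 4.15% in the control library. The exception was Calm5, whose intervals overlapped, with 4 UMIs in the low-count barcodes of each library. Within cluster 9 of the control library Calm5 was above the low-count barcodes, at 62.9 CPM against 11.3 CPM (3.08 to 28.9), and in the GOF library the intervals overlapped at 37.8 CPM against 19.8 CPM (5.39 to 50.7).

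Within cluster 4 all 8 genes of the GOF library and 7 of the control library were below the low-count barcodes with intervals apart (8.01% and 8.12% of genes in the GOF and control libraries). Their levels ranged from 5.27% to 15.97% of the low-count level in the GOF library (median 9.12%) and from 12.4% to 33.0% in the control library (median 19.4%). Krt10, the keratin of the suprabasal layers, stood at 5.77% of its low-count level in GOF and at 18.1% in control cluster 4. In cluster 9 the 8 genes ranged from 9.69% to 191% in GOF and from 18.6% to 557% in control cells. Calm5 was at the upper end in both, and Klk8 at the lower end. Krt10 there stood at 10.3% in GOF and 30.7% in control cells. In the same order Krtdap stood at 33.1% and 69.1%, Dmkn at 34.3% and 60.8%, and Lypd3 at 45.6% and 59.5%. Tgm3 stood at 42.4% and 51.7%, Sbsn at 17.7% and 33.3%, and Calml3 at 11.2% and 26.6%. The free part of these levels was not tested. Calm4 in cluster 9, at 1036 CPM in GOF and 1799 CPM in control cells, did not exceed the 1885 CPM of GOF and 1848 CPM of control low-count barcodes.

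Among the UMIs of the 8 genes Calm5 took a larger share in cluster 9 than in free RNA. Of the summed UMIs of the 8 genes Krtdap took 55.1% in GOF and 59.5% in control cluster 4, and 63.5% in GOF and 62.5% in control low-count barcodes. Calm5 took 1.30% (1.09 to 1.55) in GOF and 1.27% (1.15 to 1.39) in control cluster 9, against 0.214% (0.0583 to 0.546) in GOF and 0.140% (0.0382 to 0.358) in control low-count barcodes. Bulge-like cells had a mix of their own, with Krtdap at 28.6% in GOF and 35.9% in control cells.

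**Figure D3:**
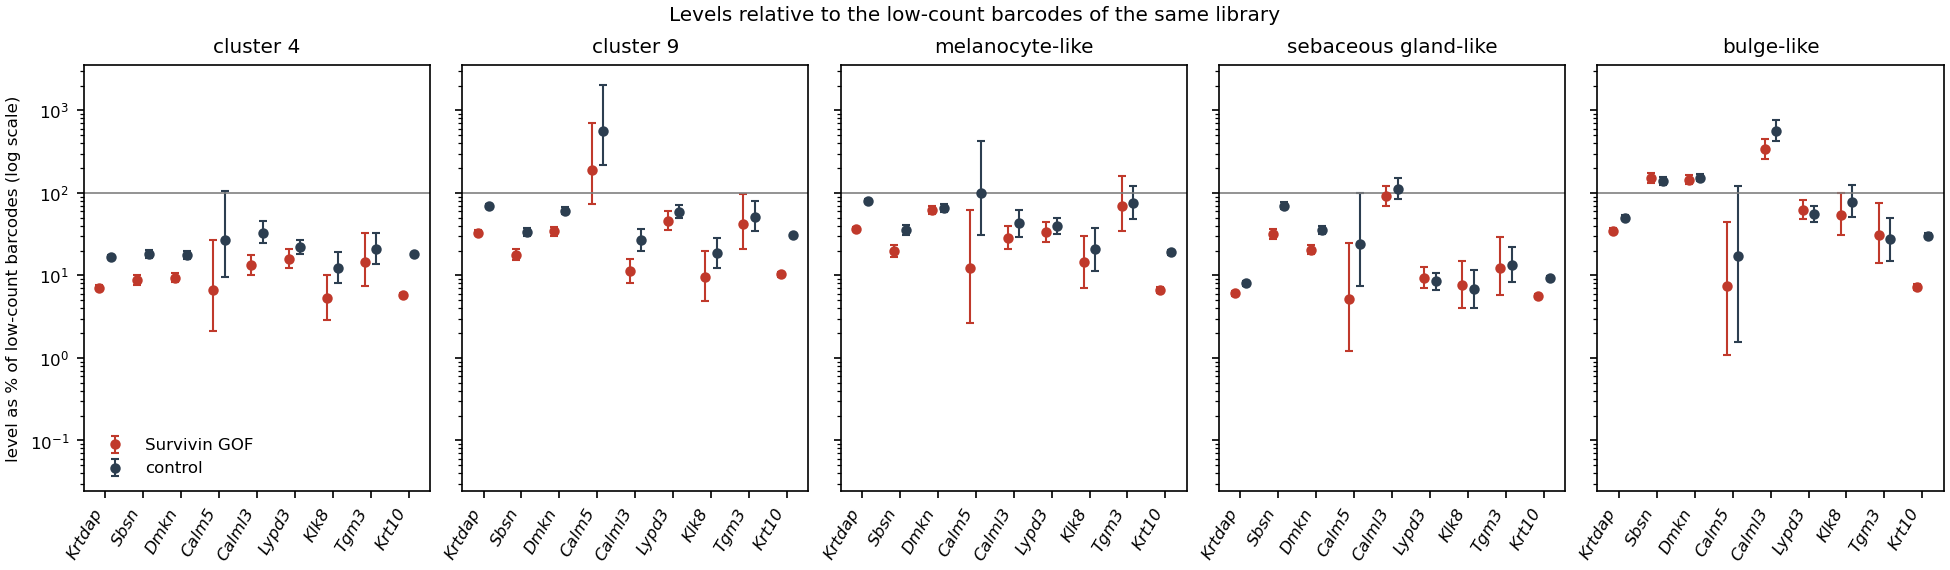
Level of the 8 genes and of Krt10 as a percentage of their level in the low-count barcodes of the same library (log scale), for Survivin GOF (red, left of each pair) and control (dark, right), with 95% intervals and a line at 100%. In cluster 4 all points lie below the line, in cluster 9 only Calm5 lies above it, and in bulge-like cells Sbsn, Dmkn and Calml3 do.

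Between genotypes 7 of the 8 genes were lower in GOF than in control hedgehog-high cells by at least 1.5-fold, with Calml3 as the exception. Krtdap, at the levels given, had a log2 ratio of -1.42 (ratio 0.374, 0.367 to 0.382). Sbsn had 127 CPM in GOF and 275 CPM in control cells (log2 ratio -1.11), Dmkn 209 CPM in GOF and 427 CPM in control cells (-1.03). Lypd3 had 71.9 CPM in GOF and 143 CPM in control cells (log2 ratio -0.99). The sparse genes were lower by as much, with Calm5 at 8.73 CPM in GOF and 28.1 CPM in control cells (-1.68), Klk8 at 4.58 CPM in GOF and 13.1 CPM in control cells (-1.51) and Tgm3 at 9.04 CPM in GOF and 26.7 CPM in control cells (-1.56). Calml3, at 35.0 CPM in GOF and 42.8 CPM in control cells, had -0.29 (ratio 0.819, 0.731 to 0.916). The 7 genes compare with 5.97% of 12142 genes tested that were lower at that mark, and 0 of the 8 were higher (6.14% of all). The median log2 ratio of the 8 was -1.26 against 0.08 over all genes.

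The class mixes its clusters in other proportions in each library, and cluster 9, which held more of these genes, made up 253 of 1059 GOF and 911 of 1821 control hedgehog-high cells. Within cluster 4 alone Krtdap stood at 418 CPM in GOF and 846 CPM in control cells (log2 ratio -1.02), and 6 of the 7 genes with at least 50 pooled UMIs were at least 1.5-fold lower in GOF cells (4.76% of all genes, median -0.94). Within cluster 9 Krtdap stood at 1944 CPM in GOF and 3480 CPM in control cells (log2 ratio -0.84), and 6 of the 8 genes were lower (5.37% of all genes, median -0.78). Cycling cluster 8, in which 10 of 14 hedgehog genes were up but inner hair follicle keratins led, and which was not named, had 528 CPM of Krtdap in GOF and 1055 CPM in control cells, with 6 of the 8 genes lower (4.65% of all genes, median -0.85).

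Several values moved with this difference. Melanocyte-like cells had 2144 CPM of Krtdap in GOF and 4054 CPM in control (log2 ratio -0.92), with 3 of the 6 genes tested at least 1.5-fold lower (3.09% of all genes, median -0.62). Krt14 did not move with it, at 4248 CPM in GOF and 4233 CPM in control cluster 4. The low-count barcodes did not go that way, with a median log2 ratio of 0.22 over the 5 genes tested. The summed level of 10 suprabasal markers in cluster 4 was 1027 CPM in GOF and 2475 CPM in control cells, and that of 9 scale markers 422 CPM in GOF and 981 CPM in control cells, with none of either list at 0. The 6 fibroblast markers went the other way in cluster 4, 2288 CPM in GOF and 741 CPM in control, nearly all of it Dcn (2277 CPM in GOF, 730 CPM in control), with Pdgfra at 0 in GOF and at 1 UMI in control cells. The part of these in the difference was not tested.

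Depth also moved with it, since median UMIs per cell in cluster 4 were 13233.5 in GOF and 8573 in control. Counted per cell, cluster 4 had 6.77 UMIs of Krtdap in GOF and 8.51 in control, and cluster 9 had 25.6 in GOF and 25.2 in control, beside 3.82 in GOF and 3.94 in control low-count barcodes. On that scale the median of all genes in hedgehog-high cells stood at a log2 ratio of 0.92, and 3 of the 8 genes were at least 1.5-fold lower in GOF cells (1.42% of all genes on that scale). Calml3 had 0.541 UMIs per GOF and 0.370 UMIs per control hedgehog-high cell, so its direction turned on that scale. Among male-called cells of both libraries (287 GOF and 1362 control hedgehog-high cells that held UMIs of Y-linked genes but not of Xist), 7 of the 8 genes were again at least 1.5-fold lower in GOF cells (7.48% of all genes tested in them).

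**Figure D4:**
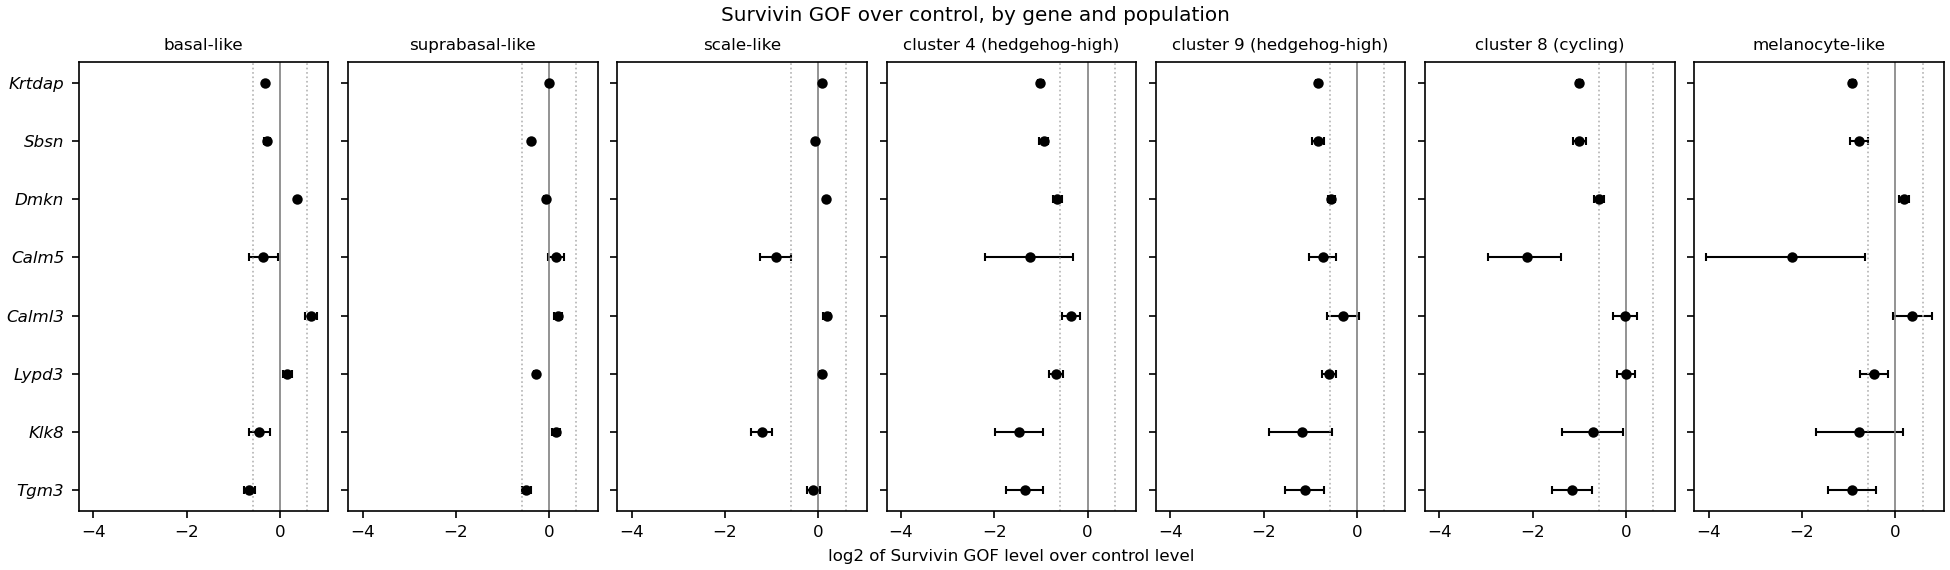
Log2 ratio of the Survivin GOF to the control level for each gene in 7 populations, with exact conditional 95% intervals, a solid line at 0 and dotted lines at 1.5-fold. Suprabasal-like points lie within the dotted lines, and in clusters 4, 9 and 8 the points of Krtdap, Sbsn and Tgm3 lie left of them.

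In the layers where the genes were high, most of them differed little in CPM between the libraries. In suprabasal-like cells 0 of the 8 genes passed 1.5-fold in either direction (5.16% of 10793 genes were lower and 3.97% higher), with a median log2 ratio of -0.04. Krtdap had a ratio of 0.993 (0.985 to 1.0), and the widest gap was that of Tgm3, 112 CPM in GOF and 158 CPM in control cells (log2 ratio -0.49), followed by Sbsn at -0.38. These gaps were narrower within the clusters of the class. The log2 ratio of Tgm3 was -0.18 in cluster 0, -0.30 in cluster 5 and -0.29 in cluster 6, and that of Sbsn was 0.19 in cluster 0, -0.36 in cluster 5 and -0.05 in cluster 6. Calml3 went the other way and passed the mark in clusters 0 and 6. It stood at 158 CPM in GOF and 101 CPM in control cluster 0 (log2 ratio 0.64), at 133 CPM in GOF and 95.4 CPM in control cluster 5 (0.48), and at 488 CPM in GOF and 319 CPM in control cluster 6 (0.61). Thus 1 of the 8 genes was at least 1.5-fold higher in GOF cells of cluster 0 (4.51% of all genes) and of cluster 6 (4.19%), and 0 in cluster 5 (7.06%).

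Depth moved with the genotype in these cells too. Counted as UMIs per suprabasal-like cell, 5 of the 8 genes were at least 1.5-fold higher in GOF cells, as were 79.7% of all genes, whose median log2 ratio on that scale was 0.83. Krtdap had 156 UMIs per GOF and 90.9 UMIs per control cell, and Sbsn 22.8 UMIs per GOF and 17.1 UMIs per control cell.

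In scale-like cells the median was 0.00, and 2 of the 8 genes were at least 1.5-fold lower in GOF cells (6.22% of 10378 genes) and 0 higher (4.82%). These were Calm5, at 13.4 CPM in GOF and 25.2 CPM in control cells, and Klk8, at 27.6 CPM in GOF and 64.0 CPM in control cells (log2 ratio -1.22). A single GOF cell held 12.4% of the 210 Klk8 UMIs there, and in male-called scale-like cells, 45 in GOF and 769 in control, the log2 ratio of Klk8 was 0.24.

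In basal-like cells 1 of the 8 genes was at least 1.5-fold lower in GOF cells (4.55% of 11340 genes) and 1 was higher (6.74%). Tgm3 stood at 60.7 CPM in GOF and 95.9 CPM in control cells (log2 ratio -0.66). Within cluster 2 (1713 GOF and 113 control cells) it stood at 60.4 CPM in GOF and 58.6 CPM in control cells (0.04). Within cluster 3 (39 GOF and 1429 control cells) it stayed lower in GOF cells. Calml3 stood at 99.9 CPM in GOF and 62.9 CPM in control cells (log2 ratio 0.67), and in male-called basal-like cells its log2 ratio was -0.23. Over all keratinocytes (6322 GOF, 10140 control) only Calm5 passed the mark, with 13.4 CPM in GOF and 20.3 CPM in control cells (log2 ratio -0.60). That was 1 of the 8 genes against 5.42% of 14586 genes, with 0 higher (6.75%), and the median of the 8 was -0.32 against 0.08 over all genes.

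Other genes of the program were taken from lists of related genes. The list of early suprabasal genes holds the 10 suprabasal markers that named the clusters. Of 17 tested early suprabasal genes (22 listed) 12 were at least 1.5-fold lower and 1 higher in GOF than in control hedgehog-high cells, with a median log2 ratio of -0.84 (5.97% of all genes tested there were lower and 6.14% higher). Krt2, a late suprabasal keratin, stood at 67.7 CPM in GOF and 505 CPM in control cells, and Scel, which encodes the envelope protein sciellin, was the 1 gene that was higher, at 57.6 CPM in GOF and 24.2 CPM in control cells. Cnfn (cornifelin), at 1.16 CPM in GOF and 1.72 CPM in control cells, had fewer than 50 pooled UMIs. In suprabasal-like cells 2 of 20 tested were lower and 2 higher (5.16% and 3.97% of all genes), with Krt2 at 2848 CPM in GOF and 9022 CPM in control cells. Cluster 6, which held most of the Krt2, made up a smaller part of the GOF class, and within it Krt2 stood at 14853 CPM in GOF and 22389 CPM in control cells. It stood at 1081 CPM in GOF and 2504 CPM in control cluster 0, and at 88.9 CPM in GOF and 506 CPM in control cluster 5. In scale-like cells 1 of 19 was lower and 1 higher (6.22% and 4.82% of all genes), and in basal-like cells 5 of 18 were lower and 4 higher (4.55% and 6.74%). Over all keratinocytes 2 of 22 were lower and 2 higher (5.42% and 6.75%).

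Of the other calmodulin genes, Calm4, the epidermal relative, stood at 354 CPM in GOF and 926 CPM in control hedgehog-high cells, past the 1.5-fold mark. Calm3, at 68.0 CPM in GOF and 70.4 CPM in control hedgehog-high cells, stayed within it. In suprabasal-like cells both stayed within it, with Calm4 at 3537 CPM in GOF and 3902 CPM in control cells and Calm3 at 38.0 CPM in GOF and 44.6 CPM in control cells.

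Among 10 genes for other kallikreins and their inhibitor Spink5, 4 were tested in hedgehog-high cells and all 4 were at least 1.5-fold lower in GOF cells (5.97% of all genes), with a median log2 ratio of -1.39. Klk11 stood at 3.48 CPM in GOF and 12.6 CPM in control hedgehog-high cells. It was lower in suprabasal-like cells too, with 28.7 CPM in GOF and 56.3 CPM in control cells, as was Klk13, with 3.25 CPM in GOF and 19.2 CPM in control cells. In that class 3 of 6 tested were lower and 1 higher (5.16% and 3.97% of all genes), whereas Klk8 itself was at 211 CPM in GOF and 190 CPM in control cells. In scale-like and in basal-like cells 4 of 6 were lower (6.22% of all genes in scale-like and 4.55% in basal-like cells) and 0 higher. The median log2 ratio was -0.99 in basal-like, -0.35 in suprabasal-like and -1.03 in scale-like cells. All keratinocytes also hold cells outside these classes. Over all keratinocytes 3 of 8 tested were lower and 2 higher (5.42% and 6.75% of all genes), with a median log2 ratio of 0.24. The higher ones were Klk6, at 2.70 CPM in GOF and 0.936 CPM in control cells, and Klk7, at 28.4 CPM in GOF and 18.8 CPM in control cells.

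Transglutaminases and their substrates were mixed. In hedgehog-high cells 3 of 6 tested were lower in GOF cells and 1 higher (5.97% and 6.14% of all genes), the higher being Tchh (trichohyalin of the inner root sheath) at 31.6 CPM in GOF and 18.1 CPM in control cells. In suprabasal-like cells 5 of 10 were lower and 3 higher (5.16% and 3.97% of all genes), in scale-like cells 4 of 7 were lower (6.22%) and in basal-like cells 2 of 5 (4.55%), with 0 higher in both. The median log2 ratio was -0.56 in basal-like, -0.43 in suprabasal-like, -1.36 in scale-like and -1.02 in hedgehog-high cells. All keratinocytes also hold clusters outside these classes, such as cluster 17 (2 GOF and 1929 control cells), whose part in the pooled values was not tested. Over all keratinocytes 0 of 11 were lower and 3 higher (5.42% and 6.75% of all genes), with a median log2 ratio of 0.35. Sprr2d (a small proline-rich envelope protein), at 19.2 CPM in GOF and 5.31 CPM in control keratinocytes, Tgm2, at 1.23 CPM in GOF and 0.463 CPM in control, and Tchh, at 33.4 CPM in GOF and 12 CPM in control, were those 3.

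Relatives of Lypd3 in the Ly6/uPAR family were mostly within the mark. In hedgehog-high cells 2 of 6 tested were at least 1.5-fold lower in GOF cells (5.97% of all genes), Ly6g6c at 7.45 CPM in GOF and 31.4 CPM in control cells and Slurp1 at 1.83 CPM in GOF and 5.84 CPM in control cells. In suprabasal-like cells 0 of 7 passed the mark (5.16% of all genes were lower and 3.97% higher). In basal-like and scale-like cells 2 of 6 and 2 of 7 were lower (4.55% and 6.22% of all genes). Over all keratinocytes 2 of 8 were lower (5.42%). Plaur, the urokinase receptor, stood at 0.377 CPM in GOF and 0.604 CPM in control keratinocytes.

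Profiles over 37 sums of a cluster in 1 library with at least 50 cells, compared as log2(CPM + 1) over 9230 genes, describe which genes were most alike. Sums share libraries and depth, so these correlations carry no test. Krtdap was most like Fam25c (Pearson r = 0.98) and Sfn (0.95), Sbsn most like Ly6g6c (0.90) and Rhov (0.89), and Dmkn most like Lgals3 (0.93) and Adam15 (0.89). Calm5 was most like Calm4 (0.86) and Gjb5 (0.83). Calml3 had the weakest matches, Nr2f6 (0.78) and Pls3 (0.77). Lypd3 was most like Rab25 (0.95) and Rnh1 (0.95), Klk8 most like the kallikrein Klk5 (0.94) and Susd2 (0.93), and Tgm3 most like Ces2g (0.96) and Stab1 (0.92). Among the 8 genes themselves the closest pair was Krtdap with Lypd3 (r = 0.89) and the most distant Calm5 with Calml3 (-0.17).

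Genes outside the trio that lie beside the members had lower levels than the member in suprabasal-like cells, except Calm4 (3537 CPM in GOF, 3902 CPM in control) and Net1 (248 CPM in GOF, 203 CPM in control) around Calm5. Gapdhs, 7790 bases from Sbsn, stood at 11.9 CPM in GOF and 14.9 CPM in control suprabasal-like cells, and Ffar2, 27251 bases from Krtdap, at 2.78 CPM in GOF and 2.88 CPM in control. Within the trio the adjacent genes had correlated sums, with r = 0.83 for Sbsn and Dmkn and 0.87 for Dmkn and Krtdap. Klk7 stood at 64.3 CPM in GOF and 40.2 CPM in control suprabasal-like cells, and Klk9 at 1.83 CPM in GOF and 1.30 CPM in control. Tgm6, the nearest gene to the right of Tgm3, stood at 0.678 CPM in GOF and 0.186 CPM in control suprabasal-like cells, and Tex101 beside Lypd3 had 0 UMIs in the 4 classes of both libraries.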

How the data were processed

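Mouse skin epidermis was profiled by droplet single-cell RNA-seq, 1 library per genotype. The deposited files hold UMI counts per gene and barcode, made with Cell Ranger 6.1.1 on mm10 per the submitters' processing notes, which also name R 4.3.0 and Seurat 4.2.0. A UMI stands for 1 tagged 3′ end, so levels do not scale with gene length, and no source used here says whether counting used the strand. The libraries held 126329382 UMIs (GOF) and 146216083 UMIs (control), of which kept cells held 101131106 and 101034876.

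Cells needed at least 1500 genes and at most 10% mitochondrial UMIs. An automatic doublet threshold marked 0 cells in either library, so the top 6% of scores were removed (428 GOF and 699 control cells with ties). Cells of both libraries were clustered without the 8 genes (scanpy 1.11.5, scikit-learn 1.9.0 and igraph 0.11.9 with 2000 variable genes, 30 principal components, 15 neighbours, Leiden resolution 1), which gave 21 clusters. Classes were given to clusters from marker lists after the leading genes of each cluster were seen. Cluster 17 (2 GOF and 1929 control cells) was left unnamed and counts only among all keratinocytes. Low-count barcodes had under 1000 UMIs and at most 10% mitochondrial UMIs.

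UMIs were summed per library and class, scaled to CPM and compared as ratios (numpy 2.4.6, scipy 1.17.1, pandas 2.3.3, Python 3.11.15), with figures from matplotlib 3.10.9. A gene was tested against a mark of 1.5-fold between libraries, or 2-fold between classes, with at least 50 pooled UMIs; members set against the low-count barcodes needed no such minimum, and no p-value was computed. Shares of cells with a UMI were taken after thinning each cell to 3000 UMIs; hedgehog-high cells lost 3 GOF and 34 control cells below that depth, and basal-like cells 3 and 8. The code was checked on simulated data. The genes named are all 8 members, the 3 genes of each other list with the widest ratio over all keratinocytes (1 result of these is not reported here), the 2 genes most alike to each member over cluster sums of at least 50 cells, and the neighbours on the chromosome; Krt10, Krt14, Dcn, Pdgfra and the list members named for a single class were added after their values were seen. The members, lists and comparisons were chosen with earlier results of these data known. Alternatives were a minimum of 2000 genes, kept doublets, classes by marker score, median-of-ratios scaling, male-called cells, the top cell left out, and other low-count bounds. Single clusters and UMIs per cell were added after the data were seen.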

Additional observations from a re-analysis of the deposited data

How the results depend on the processing

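With 1 library per genotype no replicate could be left out. No paired analysis was possible because each genotype has 1 library. In hedgehog-high cells the count of genes at least 1.5-fold lower in GOF was 7, and 6 or 7 under the other alternatives except UMIs per cell, which gave 3. Over all keratinocytes the count was 1. It was 0 with at least 2000 genes per cell, 2 with median-of-ratios scaling and 0 without clusters 17 and 20. It was 4 in male-called cells (7.15% of all genes) and 0 per cell (1.65% of all genes). In basal-like cells it was 1, against 0 in cluster 2 alone and 0 per cell (1.01% of all genes). In scale-like cells it was 2, against 0 in male-called cells (16.2% of all genes) and 0 per cell (1.82%). In suprabasal-like cells it was 0, against 1 in male-called cells (8.19% of all genes) and 0 in each of its clusters alone. The causes were not tested.

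Among ratios past 1.5-fold, signs turned in 5 cases. Calm5 over all keratinocytes had a log2 ratio of -0.60, and 0.068 per cell. Calml3 in basal-like cells had 0.67, and -0.23 in male-called cells. Klk8 in scale-like cells had -1.22, and 0.24 in male-called cells. Tgm3 in basal-like cells had -0.66, with 0.043 in cluster 2 alone and 0.10 per cell. With ratios within the mark included, 19 of 40 signs turned per cell and 10 of 40 in male-called cells, and in cluster 0 alone 5 of 8. The count of genes above the low-count barcodes in hedgehog-high cells was 0 in the alternatives run for it, and Calm5 was above them in control cluster 9 alone. The count of genes higher in suprabasal-like than basal-like cells was 5 or 6 in the GOF library and 7 in the control library. Counting limits were widest for Calm5, which had 4 UMIs in the low-count barcodes of each library.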
